A study of Mus musculus with 6 samples.

Results

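The 2′-5′-oligoadenylate synthetase (Oas) genes were examined in Raw264.7 cells, a mouse macrophage line established from a tumor induced by Abelson murine leukemia virus, after knockdown of the ETS transcription factor gene *Etv5*. The members were the 8 rows of the deposited expression table with the gene symbols *Oas1a*, *Oas1b*, *Oas1c*, *Oas1g*, *Oas2*, *Oas3*, *Oasl1* and *Oasl2*, out of 24786 gene symbols in all. Poly(A) RNA was sequenced from cells infected with lentivirus, either with the control hairpin sh-NC or with sh-*Etv5*, which targets *Etv5*, in 3 libraries each. The labels give the strain as C57BL/6 and a time of 24 or 48 h after infection, whereas the methods of the study describe passage of infected cells under puromycin selection and its results call the sequenced cells stably transfected. Whether the libraries stand for a selected line or for an early time after infection is therefore not settled here, and the strain label was not checked. The sources used here do not name which of the shRNAs was sequenced, whether the cells were a clone or a mixed population, or whether replicate libraries stem from different infections. Therefore, n counts libraries, and p-values measure the spread between them, which may be technical.

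Oas enzymes are sensors of double-stranded RNA in the cytosol. On binding it, the active enzymes join ATP into short chains of adenosine with an unusual linkage (2-5A), which act as second messengers of the antiviral response. The genes are induced by type I interferon through the transcription factor complex ISGF3, which binds interferon-stimulated response elements in their promoters. The mouse has an expanded *Oas1* cluster in which *Oas1a* and *Oas1g* encode active enzymes and several copies do not. *Oas2*, *Oas3* and *Oasl2* also encode active enzymes, whereas *Oasl1* encodes a protein without synthetase activity that represses translation of the *Irf7* mRNA.

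The promoters of the *Oas1* genes are shown first, since the genes that shared a sequence element did not all move alike. In RefSeq windows of 300 bases (250 before to 50 after the annotated start, GRCm38.p6), available for 6 of the 8 members, the letters of the interferon-stimulated response element (GAAA, any pair of bases, GAAA) were searched on both strands. *Oas2* and *Oas1b* had no window of their own, and *Oas2* was not searched. The 30 bases below lie upstream of the start of each gene and are read 5′ to 3′ towards that gene. Capitals mark the letters covered by a match. The stretch for *Oas1b* was read from the window of *Oas1c*, whose start lies 120 bases away on the opposite strand.
Oas1a: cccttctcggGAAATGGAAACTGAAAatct
Oas1g: tgcccttctcggGAAATGGAAACTGAAAat
Oas1b: cttcccggGAAATGGAAACTGAAAgtccca
Oas3: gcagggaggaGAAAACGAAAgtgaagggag

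These stretches lie at chr5:120907526-120907555 on the minus strand for *Oas1a*, chr5:120887614-120887643 on the minus strand for *Oas1g*, chr5:120812605-120812634 on the plus strand for *Oas1b* and chr5:120777715-120777744 on the minus strand for *Oas3*. In *Oas1a*, *Oas1g* and *Oas1b*, overlapping matches formed an identical run of 16 bases, GAAATGGAAACTGAAA, in the same orientation. The last base of the run lay 5 bases upstream of the annotated start of *Oas1a*, 3 bases upstream of that of *Oas1g* and 7 bases upstream of that of *Oas1b*. The same run faces away from *Oas1c*, ending 99 bases upstream of its start. *Oas3* had a single match, which ended 66 bases upstream of its start. These distances use the RefSeq starts, except for *Oas1b*, where the GENCODE start was used. The GENCODE starts of *Oas1a* and *Oas3* differ from the RefSeq ones by a few bases. The 16-base run occurred in 7 of all 32851 windows, which belong to *Oas1a*, *Oas1g*, *Oas1c* and the apolipoprotein L genes *Apol9a* and *Apol9b*, and the response element letters occurred in 3.44% of windows. The windows of *Oasl1* and *Oasl2* held no match to the response element, which says only that these letters are not in these windows. The letters TTCNNNGAA of the gamma-activated site were found in *Oas1a* alone among the 6 windows (8.30% of all windows). The letters CCGGAA, a strict form of an ETS site, were in none of the 6 windows (14.9% of all windows). The shorter letters GGAA, which occur within the 16-base run, were not counted, so ETS sites of other letters were not searched. Each match is a description of letters and not a measured binding site.

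Expression values were RPKM as the authors deposited them, a read density per length of gene and per size of library. Levels of different genes can therefore be set side by side. The depth of the libraries is unknown from these values, so no counting error was computed. Group differences were tested with limma on log2(RPKM + 1) over the 10738 genes that reached 1 RPKM in 3 or more of the 6 libraries, and a Benjamini-Hochberg adjusted p under 0.05 was called. On this scale, changes of genes at low RPKM come out too small. The knockdown target *Etv5* measured 9.18, 9.89 and 9.39 RPKM across sh-NC libraries, against 5.19, 4.91 and 5.28 RPKM with sh-*Etv5* (log2 fold change -0.78, limma adjusted p = 2.74e-07). The macrophage markers *Adgre1*, *Csf1r*, *Cd68*, *Itgam*, *Lyz2*, *Ptprc* and *Spi1* were all detected, with 3 called higher, 3 called lower and 1 not called. Their summed level was 3826 to 3930 RPKM in sh-NC and 2836 to 2914 RPKM in sh-*Etv5* libraries, a difference set mainly by *Lyz2*. The 7 markers of fibroblasts, epithelial cells, T cells and B cells summed to at most 0.107 RPKM in sh-NC and 0.151 RPKM in sh-*Etv5* libraries, with *Col1a2* and *Krt8* listed at 0 in all libraries. The part of such shifts in the results below was not tested, and in bulk RNA fewer cells of a type and less RNA per cell cannot be told apart.

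All 8 Oas members passed the filter on low values, and the family split in direction. Of the 8, 5 were higher in sh-*Etv5* cells (*Oas1g*, *Oas1b*, *Oasl1*, *Oas1a* and *Oas3*), 2 were lower (*Oasl2* and *Oas2*) and *Oas1c* was not called (limma, adjusted p under 0.05). The background of such calls was high. Over all tested genes 74.3% were called, 33.3% higher and 41.0% lower, and the 7 called members of 8 are to be read against that share. For none of the 8 members did sh-NC and sh-*Etv5* libraries overlap (5 higher, 3 lower), as for 76.4% of all tested genes, 34.3% higher and 42.1% lower. The median log2 fold change was 0.20 over the members and -0.05 over all tested genes. In absolute size, the smallest change (*Oas3*) exceeded that of 21.9% of the tested genes and the largest (*Oasl2*) that of 85.2%.

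**Figure D1:**
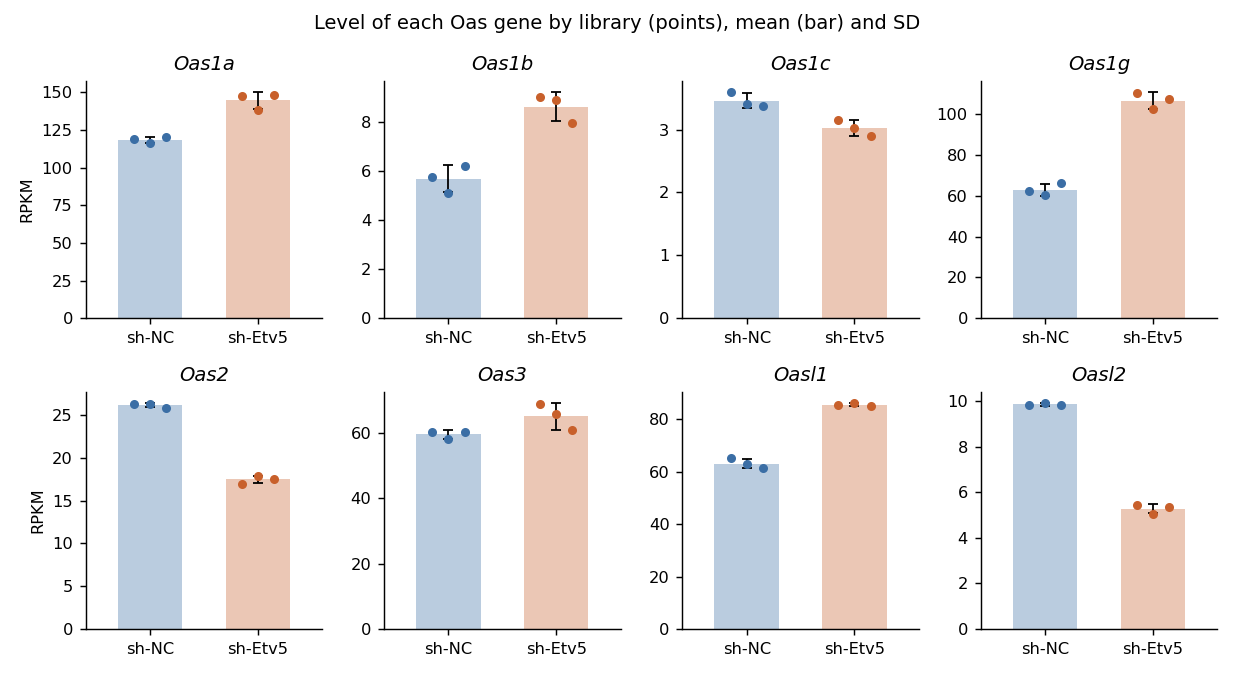
RPKM of each Oas gene in the 3 sh-NC (blue) and 3 sh-*Etv5* (orange) libraries, with points for libraries in replicate order, bars for group means and error bars for the SD; each panel has its own axis from 0. *Oas1g*, *Oas1a*, *Oasl1* and *Oas1b* sit higher and *Oas2* and *Oasl2* lower in every sh-*Etv5* library, while *Oas3* nearly meets the control level in sh-*Etv5* replicate 3.

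*Oas1a* was the most abundant member in either group. It measured 119, 116 and 120.2 RPKM across sh-NC libraries, against 147, 138 and 148 RPKM with sh-*Etv5*. Every sh-*Etv5* library was above every sh-NC library, by a margin larger than the spread within the groups. The mean rose 1.22-fold, from 119 ± 2.02 to 145 ± 5.39 RPKM (SD, n = 3), and limma gave a log2 fold change of 0.29 with SE 0.0361 (adjusted p = 2.69e-05). *Oas1a* (Ensembl ENSMUSG00000052776) spans positions 120896256 to 120907521 of chromosome 5, minus strand (GRCm38, GENCODE release M21), next to *Oas1g* (120876142 to 120887613, minus strand).

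*Oas1g*, its closest copy, had the largest rise of the family. It measured 62.6, 60.3 and 66.1 RPKM across sh-NC libraries, against 110.3, 102 and 107 RPKM with sh-*Etv5*. The groups were far apart, and the gap between them exceeded the range within either group. The mean rose 1.69-fold, from 63.0 ± 2.96 to 107 ± 4.05 RPKM (SD, n = 3), and limma gave a log2 fold change of 0.75 with SE 0.0432 (adjusted p = 3.75e-08). The ratio of *Oas1g* to *Oas1a* was 0.526, 0.518 and 0.550 in the sh-NC libraries and 0.748, 0.739 and 0.726 in the sh-*Etv5* libraries, and it was larger in each knockdown library. A difference of this kind cannot pass an exact permutation test, since 3 against 3 libraries cannot give a p below 0.1. The genes are hard to tell apart by sequence. Of the 50-base runs in *Oas1a* transcripts, 57.6% also occur in *Oas1g*, and 45.3% of those in *Oas1g* also occur in *Oas1a*. How reads shared by both were counted is not given in the sources used here. Their summed level was 181, 177 and 186 RPKM in sh-NC and 258, 241 and 255.5 RPKM in sh-*Etv5* libraries.

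*Oas3* encodes the largest enzyme of the family, which prefers long double-stranded RNA. It measured 60.3, 58.0 and 60.2 RPKM across sh-NC libraries, against 68.8, 65.6 and 60.8 RPKM with sh-*Etv5*. The groups did not overlap, but sh-*Etv5* replicate 3 lay beside the sh-NC values. The log2 fold change was 0.13 with SE 0.046 (adjusted p = 0.0287, limma), the smallest called change in the family. The call was lost without sh-*Etv5* replicate 1 (adjusted p = 0.125), without sh-*Etv5* replicate 2 (0.0726), without sh-NC replicate 2 (0.0971), without sh-NC replicate 3 (0.0515) and with libraries rescaled to the same RPKM sum (log2 fold change 0.06, adjusted p = 0.244). Over its alternatives the limma adjusted p ran from 0.00171 to 0.244.

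*Oas2*, the enzyme of intermediate size, moved the other way. It measured 26.3, 26.3 and 25.9 RPKM across sh-NC libraries, against 17.0, 17.9 and 17.5 RPKM with sh-*Etv5*. The values within each group lay close together, and the groups were well separated. The mean fell to 0.668 of the control, from 26.2 ± 0.257 to 17.5 ± 0.459 RPKM (SD, n = 3), and limma gave a log2 fold change of -0.56 with SE 0.0406 (adjusted p = 2.73e-07). None of the 50-base runs of *Oas2* occurs in a transcript of another gene. *Oas2* (120730333 to 120749853) and *Oas3* (120753098 to 120777661) are neighbors on the minus strand. The ratio of *Oas3* to *Oas2* was 2.29, 2.21 and 2.33 in sh-NC and 4.05, 3.67 and 3.47 in sh-*Etv5* libraries.

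*Oasl2*, which encodes an Oas-like protein that retains synthetase activity, had the largest change in size. It measured 9.86, 9.93 and 9.82 RPKM across sh-NC libraries, against 5.43, 5.06 and 5.36 RPKM with sh-*Etv5*. The control values differed by little, and every sh-*Etv5* value was far below them. The mean fell to 0.536 of the control, from 9.87 ± 0.0530 to 5.28 ± 0.197 RPKM (SD, n = 3), and limma gave a log2 fold change of -0.79 with SE 0.0532 (adjusted p = 1.42e-07).

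*Oasl1*, next to *Oasl2* on the plus strand, rose. It measured 65.1, 62.9 and 61.4 RPKM across sh-NC libraries, against 85.5, 86.2 and 85.2 RPKM with sh-*Etv5*. The knockdown libraries lay close together, above all controls. The mean rose 1.36-fold, from 63.1 ± 1.84 to 85.7 ± 0.521 RPKM (SD, n = 3), and limma gave a log2 fold change of 0.43 with SE 0.0344 (adjusted p = 5.43e-07). *Oasl2* (114896936 to 114912234) and *Oasl1* (114923240 to 114937915) are encoded in tandem, and the level of *Oasl1* over that of *Oasl2* went from 6.60, 6.34 and 6.25 in sh-NC to 15.7, 17.0 and 15.9 in sh-*Etv5* libraries. *Irf7*, whose mRNA the Oasl1 protein represses in translation, was itself higher at the mRNA level, at 77.7, 77.9 and 76.3 RPKM in sh-NC and 139.8, 136 and 131 RPKM in sh-*Etv5* libraries (log2 fold change 0.80, limma adjusted p = 4.14e-09). Protein was not measured in these libraries.

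**Figure D2:**
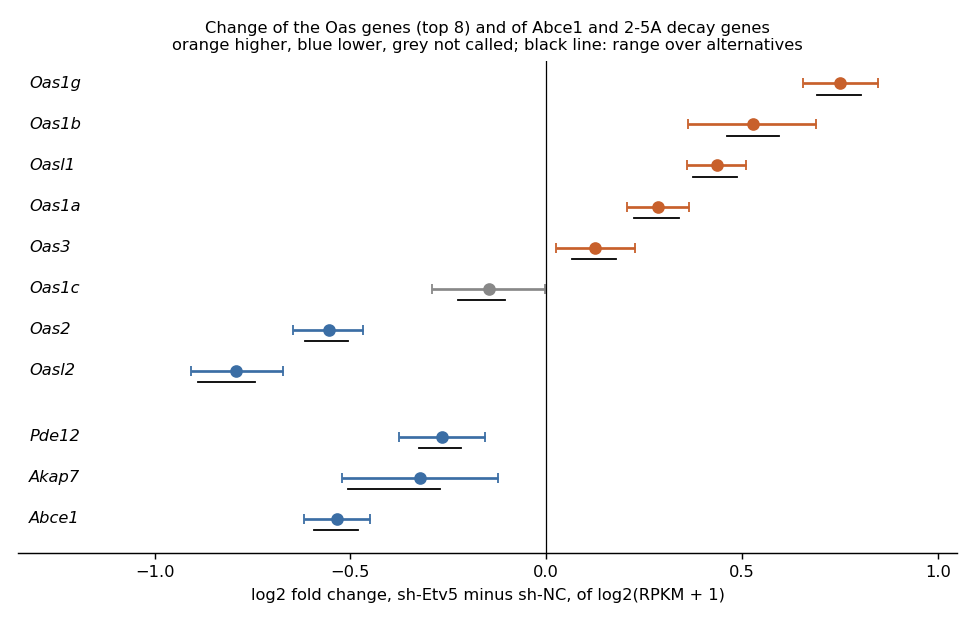
Log2 fold change, sh-*Etv5* minus sh-NC, on the log2(RPKM + 1) scale with its 95% confidence interval (limma) for the 8 Oas members and, below the gap, for *Abce1* and the genes of 2-5A decay. The thin black line under each point is the range over the alternative settings; all 8 members keep their direction over it, and among the members the intervals of *Oas3* and *Oas1c* come closest to 0.

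*Oas1b* and *Oas1c* start head to head, and their values diverged. *Oas1b* encodes a protein without synthetase activity that restricts flaviviruses in mice with a full-length allele, and it is truncated in most laboratory strains. In the C57BL/6J reference it is annotated as a polymorphic pseudogene by GENCODE and as a transcribed pseudogene by RefSeq. Which allele the cells used here carry was not examined. *Oas1b* (120812635 to 120824163, plus strand) measured 5.76, 5.09 and 6.20 RPKM across sh-NC libraries, against 9.02, 8.90 and 7.95 RPKM with sh-*Etv5*. The groups were separated, at a ratio of means of 1.52 and a log2 fold change of 0.53 with SE 0.074 (adjusted p = 6.28e-05, limma).

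*Oas1c* (120800194 to 120812514, minus strand) encodes another member without synthetase activity. It measured 3.59, 3.40 and 3.37 RPKM across sh-NC libraries, against 3.15, 3.02 and 2.90 RPKM with sh-*Etv5*. The libraries did not overlap, but the difference was small and was not called (log2 fold change -0.15, 95% confidence interval -0.29 to -0.003, limma adjusted p = 0.0613). It was called with libraries rescaled to the same sum (adjusted p = 0.0228), with quantile normalization (log2 fold change -0.23, adjusted p = 0.00732) and with eBayes without trend (0.019), and its adjusted p ran between 0.00732 and 0.173 in all. The ratio of *Oas1b* to *Oas1c* was 1.603, 1.497 and 1.84 in sh-NC and 2.86, 2.94 and 2.74 in sh-*Etv5* libraries. Exons of *Oas1c* overlap the antisense gene *Gm43069* over 227 bases (9.4% of its exonic length), and without a stated strand setting reads of the antisense gene and of *Oas1c* cannot be told apart. A further 38 bases of *Oasl1* exons overlap the antisense gene *Gm13822*.

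**Figure D3:**
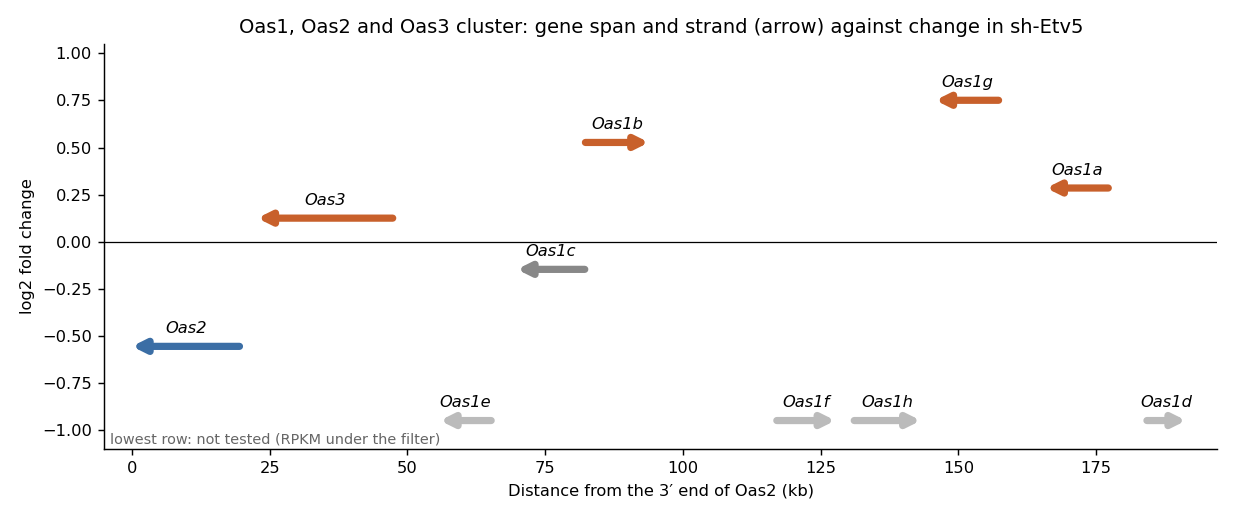
Genes of the *Oas1*, *Oas2* and *Oas3* cluster drawn by position (x axis, distance in kb from the 3′ end of *Oas2*) and strand (arrow direction) against log2 fold change (y axis); orange was called higher, blue lower and dark grey not called. *Oas1b* and *Oas1c* point away from a shared start region and lie on opposite sides of 0, and the 4 genes in light grey on the lowest row were under the filter and not tested.

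The genes with the 16-base run differed in their values. *Oas1a*, *Oas1g* and *Oas1b* were each called higher and *Oas1c* was not called. *Oas3*, whose window held a match to the response element but not the run, was called higher. Of the members whose windows held no match, *Oasl1* was called higher and *Oasl2* lower. *Oas2*, called lower, had no window. The other genes with the run in their windows, *Apol9a* and *Apol9b*, were called higher. They were looked up because of the sequence match and named after their values were seen. *Apol9a* was at 12.0, 12.5 and 11.9 RPKM in sh-NC and 15.8, 17.2 and 17.1 RPKM in sh-*Etv5* libraries (log2 fold change 0.43, limma adjusted p = 1.10e-05). *Apol9b* was at 3.66, 3.44 and 3.44 RPKM in sh-NC and 4.36, 3.99 and 4.57 RPKM in sh-*Etv5* libraries (log2 fold change 0.23, limma adjusted p = 0.00874). *Apol9a* and *Apol9b* are closely related copies, and how reads were split between them is uncertain. The same holds for *Oas1a* and *Oas1g*, so the genes with the run may not be separate cases. The share of all tested genes called higher was 33.3%, the genes are few, and no binding was measured.

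The other *Oas1* genes were near the lower end of the scale. *Oas1h* lay between 0.52 and 0.837 RPKM, and its groups overlapped. *Oas1e* lay between 0.0487 and 0.138 RPKM, with each sh-*Etv5* library above each sh-NC library, and *Oas1d* and *Oas1f* were at or below 0.169 RPKM in every library and listed at 0 in some. None of the 4 genes passed the filter. The nearest protein-coding genes in the table on either side of the *Oas1*, *Oas2* and *Oas3* cluster, *Dtx1* and *Rph3a*, 18.4 and 18.8 kb away, were also under the filter, at no more than 0.351 and 0.170 RPKM. Beside the *Oasl1* and *Oasl2* pair, *4930519G04Rik* was listed at 0 in 5 libraries and at 0.0215 RPKM in sh-*Etv5* replicate 3. On the other side *2210016L21Rik*, 4.2 kb from the pair, was at 23.0, 20.7 and 22.2 RPKM in sh-NC and 24.7, 24.4 and 26.7 RPKM in sh-*Etv5* libraries (log2 fold change 0.19, limma adjusted p = 0.006).

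The sum of the family was higher in sh-*Etv5* cells, and its makeup differed. Summed over the 8 members, the level was 352, 342 and 353 RPKM for sh-NC and 447, 427.5 and 435 RPKM in the sh-*Etv5* libraries, a ratio of means of 1.25. The RPKM sum over all genes was also larger in sh-*Etv5* libraries (330454 to 340257) than in sh-NC libraries (320462 to 322949). No rescaling was applied to the family sums. How reads shared by *Oas1a* and *Oas1g* were counted is not given, and the sums and the shares below may depend on it. The 5 members that encode active synthetases (*Oas1a*, *Oas1g*, *Oas2*, *Oas3* and *Oasl2*) summed to 278, 271 and 282 RPKM in sh-NC and 349, 329 and 339 RPKM in sh-*Etv5* libraries, and *Oas1a* and *Oas1g* carried most of this sum. The 3 other members went from a mean of 72.3 to 97.3 RPKM, most of it *Oasl1*. As a share of the family sum, *Oas1g* went from 18.0% ± 0.604 to 24.4% ± 0.436 and *Oasl2* from 2.83% ± 0.0652 to 1.21% ± 0.0244 (SD, n = 3). The share of *Oas1a* was 33.9% ± 0.156 in sh-NC and 33.1% ± 0.829 in sh-*Etv5*, with overlapping libraries. *Oas2* made up 7.32 to 7.67% of the sum in sh-NC and 3.80 to 4.19% in sh-*Etv5* libraries. In order of level, *Oas1a* stood first in both groups. *Oasl1*, *Oas1g* and *Oas3* followed in sh-NC cells within 58.0 to 66.1 RPKM, where the libraries of *Oas1g* overlapped with those of *Oasl1* and, by a narrow margin, with those of *Oas3*. In sh-*Etv5* cells the same genes were spread from *Oas1g* over *Oasl1* to *Oas3* without overlap. *Oas2* came next in both groups, and *Oasl2*, above *Oas1b* in each sh-NC library, was below it in each sh-*Etv5* library. *Oas1c* was the lowest member in all libraries.

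**Figure D4:**
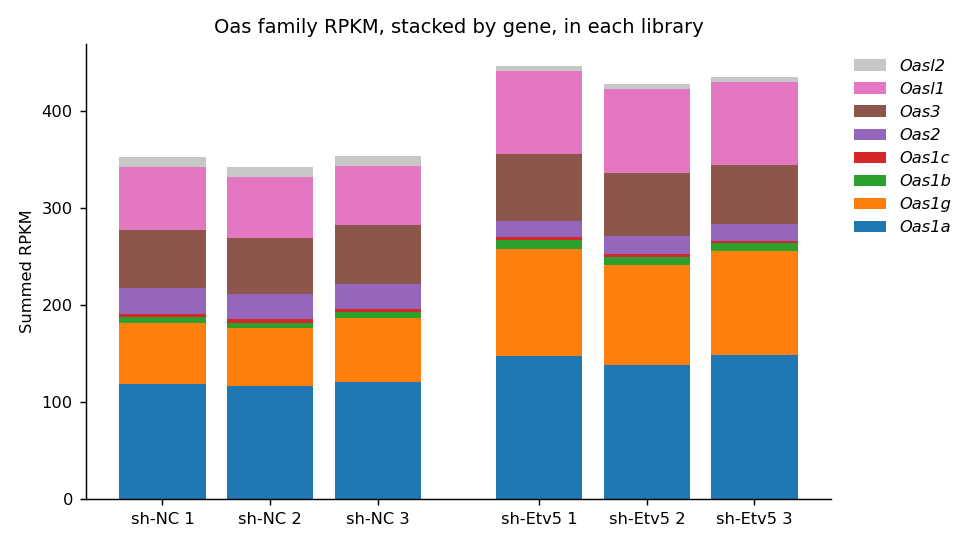
Summed RPKM of the 8 Oas genes in each library, stacked by gene from *Oas1a* at the bottom to *Oasl2* at the top. The stacks reach 342 to 353 RPKM in sh-NC and 427.5 to 447 RPKM in sh-*Etv5* libraries, and the *Oas1g* and *Oasl1* layers are thicker while *Oas2* and *Oasl2* are thinner in the knockdown.

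Genes beside the 2-5A pathway were lower in sh-*Etv5* cells. *Abce1*, *Pde12* and *Akap7*, the 3 genes of this list reported here, were all called lower (41.0% of all tested genes were), with a median log2 fold change of -0.32, beside -0.05 over all tested genes. *Abce1* encodes a ribosome recycling factor. It was at 69.5, 73.1 and 72.2 RPKM in sh-NC and at 48.4, 48.1 and 51.0 RPKM in sh-*Etv5* libraries (log2 fold change -0.53, limma adjusted p = 2.20e-07). *Pde12*, which encodes an enzyme that degrades 2-5A, was at 13.5, 14.2 and 14.5 RPKM in sh-NC and at 11.1, 11.6 and 11.9 RPKM in sh-*Etv5* libraries (log2 fold change -0.27, limma adjusted p = 0.000562). Exons of *Pde12* overlap *Arf4* on the opposite strand, within 7.6% of its exonic length that is shared with other genes. *Akap7*, whose product also cleaves 2-5A, was at 1.73, 2.01 and 1.69 RPKM in sh-NC and at 1.11, 1.17 and 1.48 RPKM in sh-*Etv5* libraries (log2 fold change -0.32, limma adjusted p = 0.0075, and -0.51 with a pseudocount of 0.1). For none of these 3 genes did the groups overlap, as for 76.4% of all tested genes (42.1% lower). Transcript levels do not measure 2-5A itself.

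Other genes listed for double-stranded RNA sensing, not all of which encode sensors, were also called in either direction. Of 10 genes, 4 were higher, 4 lower and 2 not called, beside 33.3% higher and 41.0% lower over all tested genes, and the median log2 fold change was 0.05. *Zbp1*, a sensor of Z-form nucleic acid, had the largest change and was at 5.19, 5.05 and 4.56 RPKM in sh-NC and 15.6, 17.8 and 17.0 RPKM in sh-*Etv5* libraries (log2 fold change 1.58, limma adjusted p = 2.29e-09). *Ifih1*, which encodes MDA5, was at 7.43, 7.504 and 7.93 RPKM in sh-NC and 15.7, 17.0 and 16.2 RPKM in sh-*Etv5* libraries (log2 fold change 1.00, limma adjusted p = 1.50e-08). *Prkra*, which encodes an activator of the kinase PKR, rose as well (log2 fold change 0.48, limma adjusted p = 5.18e-05). PKR itself (*Eif2ak2*, -0.32), the RNA editor *Adar* (-0.40), RIG-I (*Ddx58*, -0.25) and *Dhx58* (-0.28) were called lower. The values of *Mavs* (0.06, limma adjusted p = 0.475) and *Tlr3* (0.03, limma adjusted p = 0.691) had overlapping libraries and were not called.

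Genes listed for interferon signaling, which include *Usp18* and *Socs1*, were called in either direction as well. Of the 11 tested genes of the 14 reported here, 4 were higher, 4 lower and 3 not called, against a background of 33.3% higher and 41.0% lower. Their median log2 fold change was 0.09, and its sign depends on which listed genes are counted, since some are not reported here. Apart from *Irf7*, the largest changes among them were a fall of the receptor chain *Ifnar2* and a rise of the receptor kinase *Jak1*. *Ifnar2* was at 18.5, 18.2 and 17.7 RPKM in sh-NC and 13.3, 13.0 and 12.9 RPKM in sh-*Etv5* libraries (log2 fold change -0.44, limma adjusted p = 3.24e-06). *Jak1* was at 26.9, 28.7 and 28.7 RPKM in sh-NC and 35.4, 38.5 and 35.3 RPKM in sh-*Etv5* libraries (log2 fold change 0.36, limma adjusted p = 3.03e-05). Of the ISGF3 genes, *Irf9* fell (-0.21, limma adjusted p = 0.000849), whereas *Stat2* rose (0.31, limma adjusted p = 0.000708). The 3 untested genes were the interferons. *Ifnb1* was listed at 0, 0 and 0.175 RPKM in sh-NC and at 0.540, 0.570 and 0.272 RPKM in sh-*Etv5* libraries, below the filter but without overlap. *Ifna2* was listed at 0 in all libraries, and *Ifna4* was above 0 only in sh-*Etv5* replicate 2, at 0.0227 RPKM.

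Of 15 other interferon-induced genes, 8 were higher, 4 lower and 3 not called after knockdown (33.3% and 41.0% of all tested genes were higher and lower), and their median log2 fold change was 0.30. The largest rise was that of *Rsad2*, which encodes the antiviral enzyme viperin. *Rsad2* was at 2.63, 2.47 and 2.57 RPKM in sh-NC and 26.5, 30.6 and 28.7 RPKM in sh-*Etv5* libraries (log2 fold change 3.05, limma adjusted p = 7.64e-12). *Ifit2* (1.15, limma adjusted p = 2.75e-09) and *Isg15* (1.10, limma adjusted p = 2.33e-08) followed. The rises of the Oas members were smaller than these largest ones. *Oas1g*, at 0.75, lay between *Ifit1* (0.80) and *Xaf1* (0.59) of this list. *Mx1* was the member of this list with the largest fall (-0.74, limma adjusted p = 7.83e-06) on the log2(RPKM + 1) scale. Its mean fell to 0.447 of the control, beside 0.536 for *Oasl2*. Whether the Oas genes differ from other interferon-induced genes as a group was not tested.

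**Figure D5:**
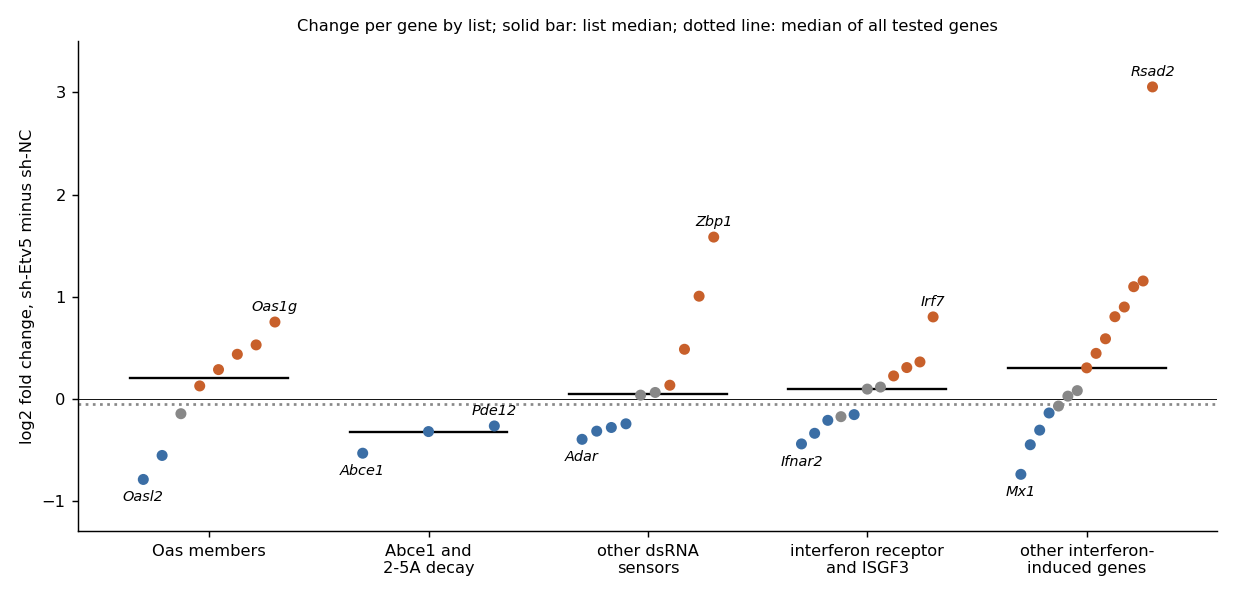
Log2 fold change (y axis, sh-*Etv5* minus sh-NC) of each tested gene in 5 lists, with orange for genes called higher, blue for lower and grey for not called; solid bars are list medians and the dotted line is the median of all tested genes (-0.05). The Oas members spread from *Oasl2* (-0.79) to *Oas1g* (0.75), all 3 genes of the *Abce1* and 2-5A decay list lie below 0, and the other lists hold genes on either side.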

How the data were processed

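The authors deposited RPKM values per gene symbol and library, from coverage tracks (bedGraph, per the file headers) and not log transformed; the submitters' processing notes name the build mm10. TruSeq libraries were sequenced; the aligner, annotation, strand setting and read number are not given in the sources used here. The 200 lowest values times gene length spread over at least 1.34 log10 units per library, so no common step per read was seen and depth is unknown. RPKM sums were 320462 to 340257. All 6 columns were used.

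Groups came from the sample titles. log2(RPKM + 1) was compared with limma 3.58.1 (R 4.3.3, eBayes with trend, two-sided, no covariate) after a filter of 1 RPKM in 3 libraries. The fit was also run on simulated data with a far smaller share of changed genes than was called here. That run does not bear on the calls. Members and lists were chosen with earlier results of these data known. Some listed genes are not reported here, and list counts and medians are over the rest. Genes named were all members, the other *Oas1* genes, *Abce1*, *Pde12* and *Akap7*, the 3 largest changes in each further list, the 3 genes most correlated with each member (the first is printed), the cluster neighbors and *Etv5*. Others, such as *Apol9a*, *Apol9b*, *Adar* and *Mx1*, were named after their values were seen. Of the gene symbols, 24255 (97.9%) matched GENCODE M21; promoters are from RefSeq. Shared runs of 50 bases were counted over GENCODE transcripts with Python 3.11.15. Alternatives were other pseudocounts, filters and scalings, eBayes without trend, a replicate block and each library left out. The planned protein alignment was not run.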

Additional observations from a re-analysis of the deposited data

How the results depend on the processing

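Over 14 alternatives (pseudocount 0.1, no filter, mean RPKM of at least 5, 3 rescalings, eBayes without trend, the replicate block and each library left out), 351 of 362 comparisons kept their direction and their side of the threshold (for counts, within 1.5 times), and no tested gene among the members, *Abce1*, *Pde12* and *Akap7* reversed. The comparisons include called counts of the other *Oas1* genes, which the filter held at 0 in most settings, so the total overstates stability. *Oas1a*, *Oas1b*, *Oas1g*, *Oas2*, *Oasl1*, *Oasl2*, *Abce1*, *Pde12* and *Akap7* were called under every alternative that tested them. *Oas3* kept its call in 7 of 14 alternatives, and *Oas1c* stayed not called in 10 of 13. When single libraries were omitted, log2 fold changes ran from 0.72 to 0.79 for *Oas1g*, from 0.08 to 0.17 for *Oas3*, from -0.17 to -0.12 for *Oas1c* and from -0.81 to -0.77 for *Oasl2*. *Oas3* also lost its call with no filter (adjusted p = 0.0875) and with eBayes without trend (0.0688), and the cause was not tested. With no filter, 1 of the other *Oas1* genes, *Oas1e*, was called higher, at values too low to read. With a mean RPKM of at least 5, *Akap7* and *Oas1c* were not tested. The libraries share only replicate numbers. The correlations of their deviations from the group means were 0.074, -0.071 and -0.035 for equal numbers, and 1 of the 3 sh-NC libraries correlated best with its own number. With the replicate block, 5 Oas members were higher and 2 lower, as without it, and 3539 genes were higher and 4361 lower in all. Rescaling moved the median log2 fold change of all genes from -0.05 to between -0.103 and -0.003. Unknown depth limits what can be said of the lowest *Oas1* genes.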

Other observations

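Over the 6 libraries, the tested genes outside the lists whose log2(RPKM + 1) was most correlated with a member were *Ppme1* for *Oas1g* (Pearson r = 0.9996), *Zcrb1* for *Oas1a* (0.9983), *Nipal3* for *Oas1b* (0.9971), *Dus3l* for *Oas1c* (0.9993), *Dennd3* for *Oas2* (1.0), *Sec14l2* for *Oas3* (0.9912), *Grap* for *Oasl1* (0.9996) and *Lyl1* for *Oasl2* (0.9998). The libraries form 2 groups, so such values mostly restate the group difference. The number of genes with r over 0.95 was 2631 for *Oas2* and 27 for *Oas3*.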
